A study of Rattus norvegicus with 12 samples.

Results

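The genes examined here carry pyruvate into the citric acid (TCA) cycle and run the cycle. They encode the mitochondrial pyruvate carrier, the pyruvate dehydrogenase (PDH) complex with the kinases and phosphatases that switch it, the enzymes of the cycle, and enzymes that feed or drain it. Members were taken from a list of 36 symbols as those with a row in the raw count table and 10 or more counts in 3 or more libraries. Rows were found for 34 of them, all 34 met the count rule and passed the filter on low counts, and they stand among 32883 genes in the table. The other 2, Ogdh and Pcx, are not analysed here under those symbols, and the subunits of succinate dehydrogenase were not among the members.

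RNA was measured in ventricular heart muscle cells taken from newborn rats and cultured for 2 days after infection with an adenovirus. The virus carried LacZ, a bacterial gene that serves as control cargo, or human KAT6A, a histone acetyltransferase. KAT6A was the wild-type form (WT), K815R, in which a lysine is replaced so that it resists acetylation, or K815Q, in which the replacement mimics acetylation. Each of the 4 groups had 3 libraries, and the cells kept their own Kat6a. The labels do not say whether the 3 libraries of a group came from separate cell preparations, so p-values measure the spread between these libraries, which may be technical.

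Pyruvate made by glycolysis in the cytosol enters the mitochondrion through the carrier and is oxidised by the PDH complex to acetyl-CoA, the fuel of the TCA cycle. PDH kinases switch the complex off by phosphorylation and PDH phosphatases switch it on again, which sets how much of the heart's energy comes from carbohydrate and how much from fatty acids. Cardiomyocytes are packed with mitochondria and shift from glycolysis towards fatty acid oxidation after birth. Pdk4 is the kinase best known for responding to fasting and fatty acids in heart muscle, through PPAR, ERR and FOXO factors.

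Libraries held between 19102048 and 25451686 gene counts. Levels are in CPM, each library's counts relative to its total gene counts after TMM scaling, and differences are log2 fold changes. Rat Kat6a stood at 93.0 ± 12.3 CPM in WT and 108 ± 11.7 in K815R, against 48.1 ± 4.75 in LacZ (SD, n = 3). It was not raised in the third form, at 46.3 ± 3.35 CPM (SD, n = 3), so these are named the K815Q-labelled libraries, and a direction printed for them is only as good as that label. Whether the rat gene's counts include reads from the human cargo is not given in the sources used here. Prkaa2, which encodes a catalytic subunit of the energy sensor AMPK, separated the groups far more widely. Its level was 60.9 ± 10.2 CPM (LacZ), 519 ± 102 (WT), 87.2 ± 8.70 (K815R) and 1168 ± 55.4 (K815Q-labelled) (SD, n = 3). Against LacZ it was called in WT (8.51-fold, adjusted p 2.51e-05) and in the K815Q-labelled libraries (19.2-fold, adjusted p 4.06e-06), and not in K815R (1.43-fold, adjusted p 0.190). Its part in the differences reported for the metabolic genes was not tested. Of 36 markers of cell types, 34 had a row and 0 of these were at 0 counts in any library. The 9 cardiomyocyte markers summed to between 39672 and 44754 CPM per library, and 8 fibroblast markers to between 10960 and 12803 CPM, so RNA of both kinds of marker was present. In bulk RNA, fewer cells of a type and less RNA per cell cannot be told apart.

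Across the 34 genes the differences between the virus groups were small, and most of the genes held nearly the same level in all 12 libraries. Calls required an adjusted p below 0.05, with the adjustment made over all 14063 genes tested. Against LacZ, 1 member of 34 (2.94%) was called in WT, 1 (2.94%) in K815R and 2 (5.88%) in the K815Q-labelled libraries. Over all genes tested the called shares were 5.34%, 2.47% and 7.85%, so the members were called about as often as other genes. All of these calls were lower than LacZ, and over all genes 3.39%, 1.74% and 4.98% were called lower. The unadjusted p was under 0.05 for 9 members in WT, 1 in K815R and 7 in the K815Q-labelled libraries. For the mean of the 3 KAT6A groups against LacZ it was under 0.05 for 9. The shares of all genes under that limit are not given here.

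Between the forms, 1 member (2.94%) was called in K815R against WT, as higher, where 2.20% of all genes were called and 1.32% were called higher. With edgeR, 0 members were called in the K815Q-labelled libraries against WT and 0 in K815R against the K815Q-labelled libraries, where 1.07% and 0.363% of all genes were called. The unadjusted p was under 0.05 for 4 and 2 members there, and DESeq2 also called 0 in each. Between the mean of the 3 KAT6A groups and LacZ, 1 member was called, as lower, against 6.66% of all genes in either direction and 4.31% lower. Tested for differences of any kind across the 4 groups, 2 members were called, against 8.13% of all genes. The 3 members with a call were Me1, Pdk3 and Pdk4.

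Judged by the spread between these libraries, which may be technical, the size of change that these data leave room for was narrow. If the libraries of a group came from the same cell preparation, the intervals do not cover differences between preparations. In WT against LacZ, the 95% interval of the fold change lay within 1.25-fold in either direction for 29 of 34 members and within 1.5-fold for all 34. In K815R against LacZ these counts were 32 and 34, and in the K815Q-labelled libraries against LacZ 31 and 33, with Pdk4 the exception to the wider bound. Taken without its sign, the median log2 fold change over the members was 0.08, 0.03 and 0.07 in these 3 comparisons, beside 0.10, 0.08 and 0.11 over all genes tested. The libraries of a group also lay close together: the median SD of log2 CPM within groups was 0.057 over the members and 0.11 over all genes tested. The members were counted deeply, with a median over members of 3896 counts in the library where each was lowest. The 3 comparisons share the LacZ libraries.

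**Figure D1:**
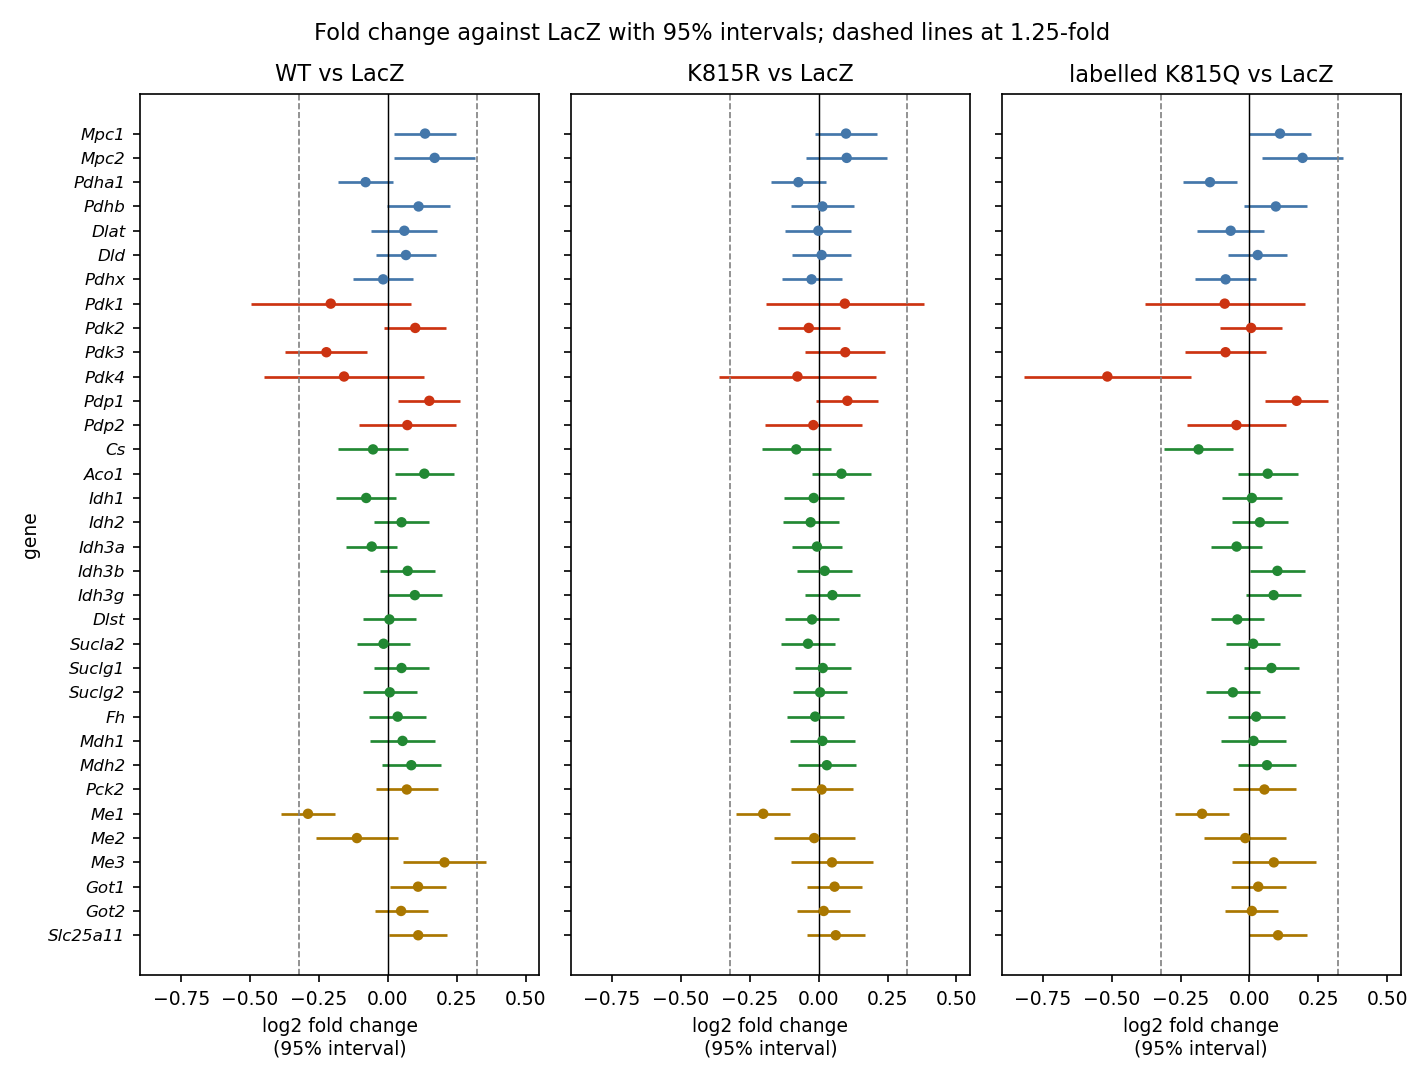
Log2 fold change (x axis) of each of the 34 genes (y axis) against LacZ, with its 95% interval as a horizontal line, in WT, K815R and the K815Q-labelled libraries; colours mark the 4 role groups and dashed lines mark 1.25-fold. Most intervals lie between the dashed lines (29, 32 and 31 of 34), and that of Pdk4 in the third panel reaches -0.82.

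The upstream sequences of the 3 called members are shown because elements of known regulators of such genes can be looked for there. Each runs 250 bases 5′ of the RefSeq gene start, in assembly GRCr8, on the minus strand, 5′ to 3′. The submitters' processing notes name another build, Rnor_6.0, for the counts, so the coordinates serve only for these sequences. Capitals mark 1 motif per gene, chosen after the calls were known: the antioxidant response element core TGACNNNGC in Me1 and the hypoxia response element core ACGTG in Pdk3. The Pdk4 sequence is in lower case throughout because it held none of the 5 motifs searched.
Me1, chr8:96540245-96540494: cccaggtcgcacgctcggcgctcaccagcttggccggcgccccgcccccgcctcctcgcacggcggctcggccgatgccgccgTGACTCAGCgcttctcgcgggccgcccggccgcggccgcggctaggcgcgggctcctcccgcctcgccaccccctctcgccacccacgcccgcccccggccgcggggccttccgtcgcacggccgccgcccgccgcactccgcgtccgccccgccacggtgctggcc
Pdk3, chrX:62547372-62547621: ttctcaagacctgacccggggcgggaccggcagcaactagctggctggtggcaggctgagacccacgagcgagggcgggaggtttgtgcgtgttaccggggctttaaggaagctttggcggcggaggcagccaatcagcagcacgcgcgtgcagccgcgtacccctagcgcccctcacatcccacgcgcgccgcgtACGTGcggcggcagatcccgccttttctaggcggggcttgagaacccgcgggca
Pdk4, chr4:34568330-34568579: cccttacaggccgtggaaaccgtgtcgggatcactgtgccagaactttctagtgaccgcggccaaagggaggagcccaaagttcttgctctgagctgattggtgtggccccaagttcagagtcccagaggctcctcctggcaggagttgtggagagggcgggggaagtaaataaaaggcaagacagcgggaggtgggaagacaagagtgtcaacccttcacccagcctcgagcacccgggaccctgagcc

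Both strands were searched, and matches could overlap. The antioxidant response element core begins 167 bases before the start of Me1 and was found in 8 of the 31 members with a RefSeq promoter entry (25.8%), beside 10.1% of 33465 promoters of the same length. The hypoxia response element core begins 54 bases before the start of Pdk3 and was found in 5 of 31 members (16.1%), beside 16.6% of all promoters. The forkhead element GTAAACA was found in 1 of 31 (3.23%, beside 3.22%). The direct repeat 1 element that PPAR and RXR bind and the ERR element TCAAGGTCA were found in 0 of 31, beside 0.0508% and 0.388% of all promoters. The members' upstream sequences were richer in G and C, with a median of 61.2% against 51.2% over all promoters. Pdp1, Pdp2 and Idh3a had no entry. A match is a string of letters, not a bound site.

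Me1, the cytosolic malic enzyme that turns malate into pyruvate and makes NADPH, was lower than LacZ in WT and K815R, where Kat6a was raised, and in the K815Q-labelled libraries, where it was not. Its levels were 149.9, 156 and 159.6 CPM in the LacZ libraries. They were 128, 125 and 128 CPM in WT. In K815R they were 139, 132 and 134 CPM, and in the K815Q-labelled libraries 133, 137 and 144 CPM. All 9 libraries of these 3 groups lay below all 3 LacZ libraries, and the WT libraries were the lowest.

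Relative to LacZ, Me1 in WT stood at a log2 fold change of -0.29, with an SE of 0.0476 and an adjusted p of 5.53e-04, which is 0.818 times the LacZ level. It was -0.20 (SE 0.0474, adjusted p 0.0219) in K815R and -0.17 (SE 0.0475, adjusted p 0.0303) in the K815Q-labelled libraries. For the mean of the 3 forms against LacZ it was -0.22 (SE 0.0382, adjusted p 7.09e-04). Between the forms no difference in Me1 was called. K815R lay above WT by 0.09 (95% interval -0.01 to 0.19, adjusted p 0.438), and the K815Q-labelled libraries lay above WT by 0.12 (95% interval 0.02 to 0.22, adjusted p 0.255). The WT call was kept whichever of the 12 libraries was left out. The K815R call was lost without LacZ replicate 2 or 3 or K815R replicate 2 or 3, and that of the K815Q-labelled libraries without LacZ replicate 2 or 3 or K815Q replicate 1 or 2. The log2 fold changes then ran from -0.20 to -0.18 and from -0.17 to -0.15.

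The summed levels of marker lists are given for the same groups. The 7 macrophage and leukocyte markers summed to between 53.7 and 67.2 CPM (LacZ), 67.9 and 72.4 (WT), 68.8 and 73.0 (K815R) and 67.1 and 75.4 (K815Q-labelled). The 8 fibroblast markers summed to between 11818 and 12686 CPM in LacZ and between 10960 and 12012 CPM in WT. Of these 8, 1 was called higher and 1 lower in WT (25%, beside 5.34% of all genes). The 9 cardiomyocyte markers summed to between 39672 and 42089 CPM in LacZ and 41687 and 42664 CPM in WT. The last 2 lists overlapped between LacZ and WT, as did the macrophage list between LacZ and the K815Q-labelled libraries. The macrophage sums of WT and K815R lay above every LacZ sum. For the mean of the 3 forms against LacZ, 1 macrophage marker was called higher and 1 lower (28.6% of 7, beside 6.66% of all genes). In that comparison 2 fibroblast markers (25%) were called, both higher. In K815R against LacZ 0 markers of any list were called, beside 2.47% of all genes. The part of these in the Me1 result was not tested.

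**Figure D2:**
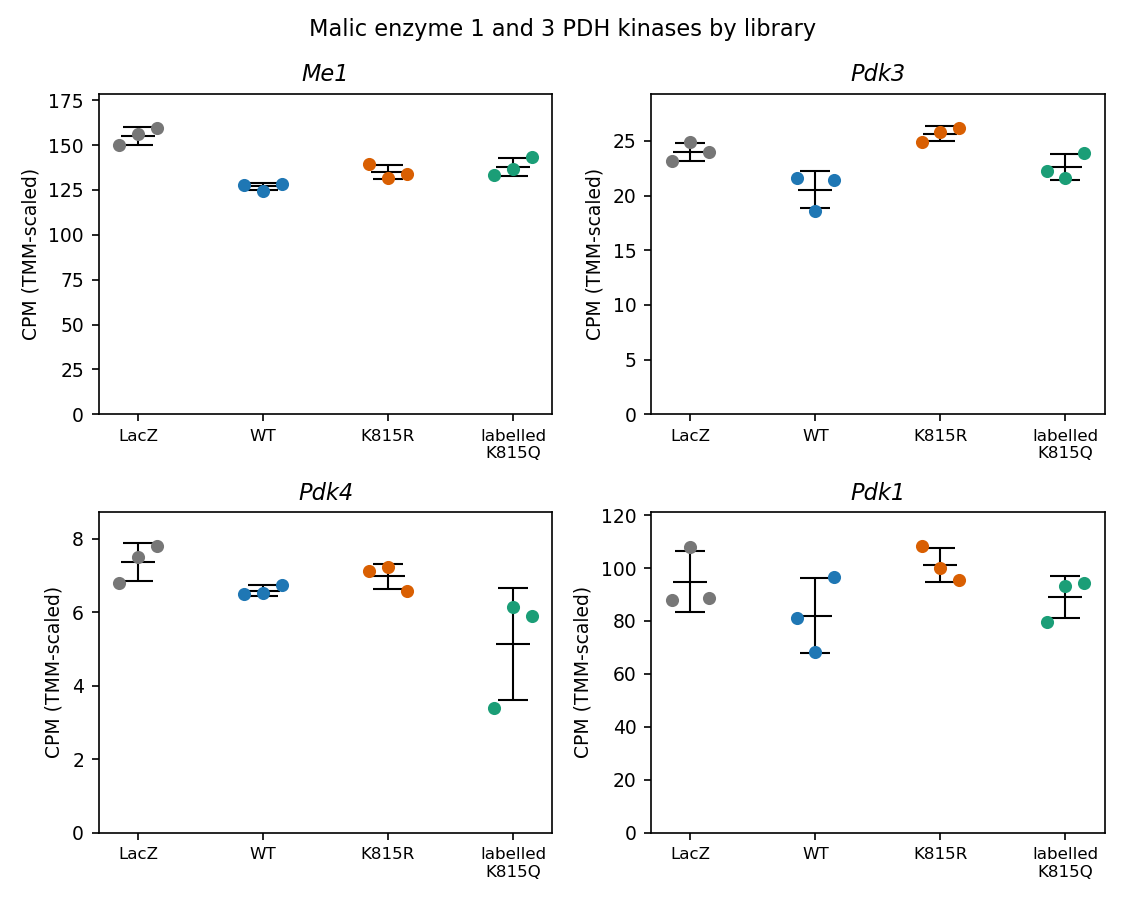
CPM of Me1, Pdk3, Pdk4 and Pdk1 (y axes, from 0) in each library by group (x axes); points are the 3 libraries of a group, and black bars are their mean ± SD. The Me1 points of all KAT6A groups lie below the LacZ points, the Pdk3 points of K815R lie above those of WT, and 1 K815Q-labelled library, at 3.38 CPM, lies below all others for Pdk4.

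Of the 6 genes that set the activity of the PDH complex, Pdk3 and Pdk4 had a call and Pdk1, Pdk2, Pdp1 and Pdp2 had none. In K815R against WT the call of Pdk3 was 1 of 6 (16.7%), beside 2.20% of all genes. In the K815Q-labelled libraries against LacZ that of Pdk4 was 1 of 6 (16.7%), beside 7.85%. Pdk3 encodes a PDH kinase. It stood at 23.2, 24.9 and 24.0 CPM (LacZ), 21.6, 18.6 and 21.4 (WT), 24.9, 25.9 and 26.2 (K815R) and 22.3, 21.6 and 23.9 (K815Q-labelled). All 3 K815R libraries lay above all 3 WT libraries, and the 3 LacZ libraries lay between them. The log2 fold change of K815R over WT was 0.32, or 1.25-fold, with an SE of 0.0718 and an adjusted p of 0.0208. Across all 4 groups the adjusted p was 0.0286. Against LacZ, WT stood at -0.22 (adjusted p 0.0734) and K815R at 0.10 (adjusted p 0.598), so neither form alone was called. Without WT replicate 2, the lowest library, the difference between K815R and WT was 0.25 (adjusted p 0.119), and it was also not called without K815R replicate 2 or 3. The 9 cardiomyocyte markers summed to between 43775 and 44754 CPM in K815R, above the 41687 to 42664 CPM of WT. Of the 9, however, 5 stood higher and 4 lower, with a median log2 fold change of 0.01. Only Myh7 was called, as higher (0.37, adjusted p 0.0388), which is 11.1% of the 9 beside 2.20% of all genes. Actc1 had a mean of 12092 CPM in K815R and 10320 CPM in WT. The part of these markers in the Pdk3 result was not tested.

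Pdk4, the kinase tied to fatty acid use, was counted at only 65 to 190 reads per library. Its levels were 6.79, 7.49 and 7.79 CPM in the LacZ libraries. WT libraries held 6.49, 6.51 and 6.75 CPM, and K815R libraries 7.11, 7.21 and 6.58 CPM. In the K815Q-labelled libraries they were 3.38, 6.14 and 5.89 CPM. These 3 lay below every other library, and replicate 1 lay far below the rest. The log2 fold change against LacZ was -0.52 (SE 0.147, 95% interval -0.82 to -0.21, adjusted p 0.0349), or 0.699-fold. Without K815Q replicate 1 it was -0.29 (adjusted p 0.202). The call was also lost without LacZ replicate 2 (-0.50) or LacZ replicate 3 (-0.47). Pdk4 in these libraries was not called against WT (-0.36, adjusted p 0.281) nor against K815R, which lay above them by 0.44 (95% interval 0.13 to 0.75, adjusted p 0.229). Of the 8 fibroblast markers, 4 stood higher and 4 lower in the K815Q-labelled libraries than in LacZ. Tcf21 (0.53, adjusted p 0.00236) and Postn (0.20, adjusted p 0.0421) were called, both as higher (25% of the 8, beside 7.85% of all genes). Of the 7 macrophage and leukocyte markers, 6 stood higher and 1 lower. The lower one was Adgre1, the only one of the 7 called (-0.54, adjusted p 0.0356), which is 14.3% beside 7.85% of all genes. The collagen gene Col1a2 was at 126, 81.0 and 9.85 CPM in K815Q replicates 1, 2 and 3 (against LacZ, adjusted p 0.150). It was at 9.72, 15.7 and 10.4 CPM in LacZ, and was also high, at 74.3, in K815R replicate 1. K815Q replicate 1 was lowest in Pdk4 and highest in Col1a2. Pdk4 was at 6.14 CPM in K815Q replicate 2, 5.89 CPM in K815Q replicate 3 and 7.11 CPM in K815R replicate 1. Col1a1, another collagen gene, stood at 8064, 8413 and 7935 CPM in the K815Q-labelled libraries and 8614, 8147 and 8008 CPM in LacZ. The part of these markers in the Pdk4 result was not tested. In WT and K815R Pdk4 stood at -0.16 and -0.08 against LacZ (adjusted p 0.598 and 0.870).

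Pdk1, a kinase known as a target of the hypoxia factor HIF, varied most within groups after Pdk4, with an SD of log2 CPM of 0.17. It ran from 87.8 to 108 CPM (LacZ), 68.3 to 96.7 (WT), 95.5 to 108 (K815R) and 79.8 to 94.2 (K815Q-labelled). WT and K815R overlapped, and K815R stood above WT by 0.30 (95% interval 0.01 to 0.59, adjusted p 0.343). Pdk2, the most widely expressed of the kinases in the body, stood at 86.9 ± 1.52 CPM (LacZ), 93.1 ± 3.57 (WT), 84.7 ± 6.40 (K815R) and 87.3 ± 1.98 (K815Q-labelled) (SD, n = 3).

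Pdp1, the calcium-sensitive PDH phosphatase, stood at 44.9, 49.2 and 49.1 CPM in LacZ and between 49.5 and 54.7 CPM in the 9 KAT6A libraries, all above LacZ. The log2 fold changes against LacZ were 0.15 in WT, 0.10 in K815R and 0.17 in the K815Q-labelled libraries (adjusted p 0.118, 0.417 and 0.0564). For the mean of the 3 forms it was 0.14 (adjusted p 0.0582), and without K815R replicate 2 this was called. Pdp2, the other phosphatase, lay between 16.1 and 21.0 CPM in LacZ and between 17.0 and 19.8 CPM in the other 9 libraries, inside the LacZ range.

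**Figure D3:**
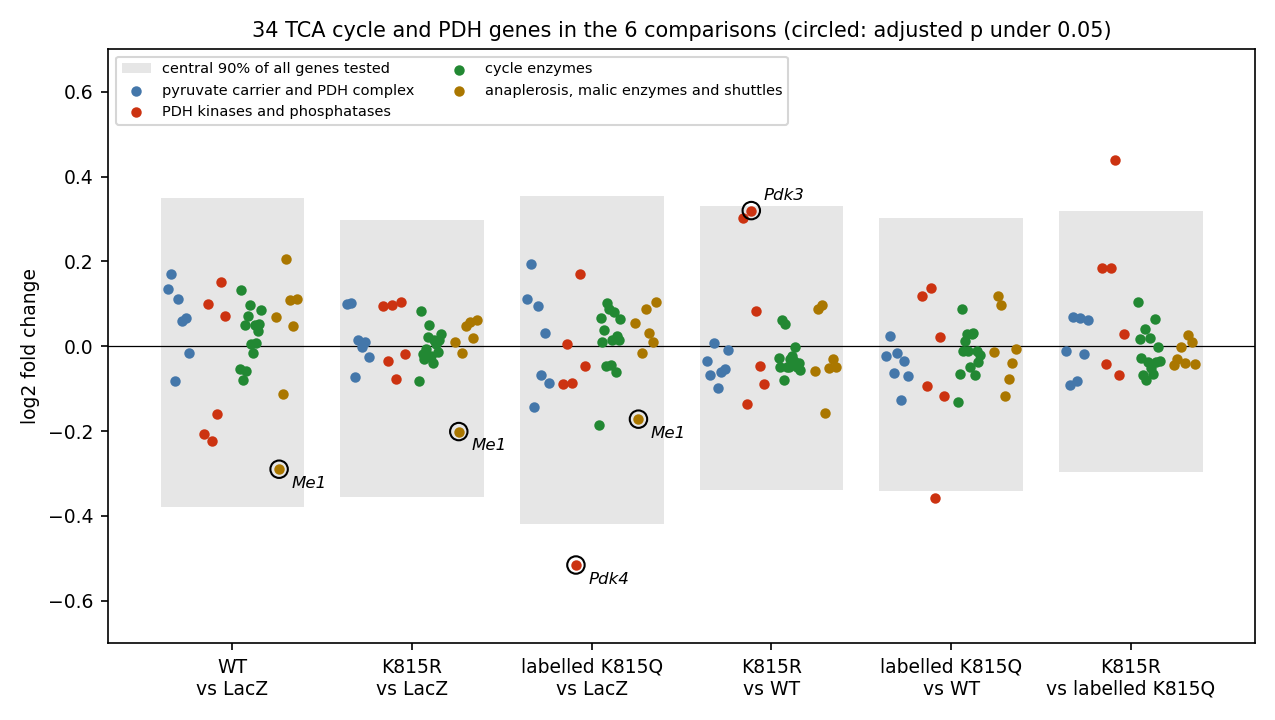
Log2 fold change (y axis) of the 34 genes in each of the 6 pairwise comparisons (x axis), coloured by role; grey boxes span the central 90% of all genes tested, and circles mark members with an adjusted p under 0.05. The cycle enzymes lie near 0 throughout, and the PDH kinases and phosphatases are the most spread.

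Of the 7 genes of the pyruvate carrier and the PDH complex, edgeR called 0 in any of the 8 tests, beside 0.363% to 8.13% of all genes. The unadjusted p was under 0.05 for 2, 0 and 2 of them against LacZ in the order WT, K815R and K815Q-labelled. DESeq2 called Pdha1, the catalytic alpha subunit, in the K815Q-labelled libraries, as did the fit without LacZ replicate 1. Mpc2 and Mpc1 form the carrier. Mpc2 stood at 133, 131 and 125 CPM (LacZ), 145, 154 and 139 (WT), 149.8, 119 and 148 (K815R) and 154, 139.8 and 150.3 (K815Q-labelled). All KAT6A libraries except K815R replicate 2, which was the lowest of the 12, lay above LacZ.

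Against LacZ, Mpc2 stood at 0.17 in WT, 0.10 in K815R and 0.19 in the K815Q-labelled libraries (adjusted p 0.182, 0.578 and 0.0957). Mpc1 showed 0.14, 0.10 and 0.11 (adjusted p 0.170, 0.451 and 0.219). Without K815R replicate 2, Mpc1 and Mpc2 were called for the mean of the 3 forms against LacZ. Without that library Mpc2 was also called in WT and in the K815Q-labelled libraries. Pdha1 went the other way, from 392 ± 18.8 CPM in LacZ to 355 ± 9.71 in the K815Q-labelled libraries (SD, n = 3), a log2 fold change of -0.14 (adjusted p 0.0664). Its partner Pdhb stood at 365 ± 8.59 CPM in LacZ and 389.8 ± 17.6 there (SD, n = 3; adjusted p 0.296). Dlat, the acetyltransferase core, Dld, the shared dehydrogenase that ends the reaction, and Pdhx, the protein that binds Dld to the core, had log2 fold changes against LacZ between -0.09 and 0.07.

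Among the 14 enzymes of the cycle and its side steps, 0 were called by edgeR in any of the 8 tests, beside 0.363% to 8.13% of all genes. The unadjusted p was under 0.05 for 1, 0 and 2 against LacZ in the order WT, K815R and K815Q-labelled. In each of the 6 pairwise comparisons all 14 had a 95% interval within 1.25-fold. Cs encodes citrate synthase, which opens the cycle. The activity of that enzyme is a common measure of mitochondrial content, and only RNA was measured here. Of the 14, Cs was the farthest from LacZ in the K815Q-labelled libraries, while Aco1 was the farthest in WT and K815R. Cs stood at 349, 361 and 353 CPM in LacZ and at 287, 306 and 343 in the K815Q-labelled libraries, all below LacZ and widely spread. The log2 fold change was -0.18 (SE 0.0609, adjusted p 0.0638). It was called by DESeq2, with the replicate number as a block, without a filter on low counts, and without K815R replicate 2 or K815Q replicate 3.

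The other cycle enzymes were steadier. Aco1, the cytosolic aconitase that also acts as an iron sensor, stood at 59.3 ± 2.13 CPM in LacZ and 65.0 ± 0.612 in WT (SD, n = 3; log2 fold change 0.13, adjusted p 0.154). Idh3a, Idh3b and Idh3g encode the NAD-dependent isocitrate dehydrogenase. Against LacZ the catalytic subunit Idh3a stood at -0.06, -0.01 and -0.05 in the order WT, K815R and K815Q-labelled, while Idh3b stood at 0.07, 0.02 and 0.10 and Idh3g at 0.10, 0.05 and 0.09. Dlst, the core of the 2-oxoglutarate dehydrogenase complex, stood at 352 ± 0.640 CPM (LacZ), 354 ± 0.526 (WT) and 346 ± 7.84 (K815R) (SD, n = 3). Its level in the K815Q-labelled libraries was 342 ± 18.1 CPM (SD, n = 3).

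Fh, the fumarase, and the malate dehydrogenases Mdh1 and Mdh2, cytosolic and mitochondrial, had log2 fold changes against LacZ between -0.01 and 0.09. Idh1 and Idh2, the NADP-dependent isocitrate dehydrogenases of the cytosol and the mitochondrion, lay between -0.08 and 0.05. Of the subunits of succinyl-CoA ligase, Sucla2 ran from -0.04 to 0.01, Suclg1 from 0.02 to 0.08 and Suclg2 from -0.06 to 0.01. RefSeq lists gene copies named as pseudogenes of Dlat, Dld, Cs, Idh3b, Fh, Mdh1, Mdh2, Pck2 and Got2, so the levels of these members are uncertain where reads could fall on a copy.

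**Figure D4:**
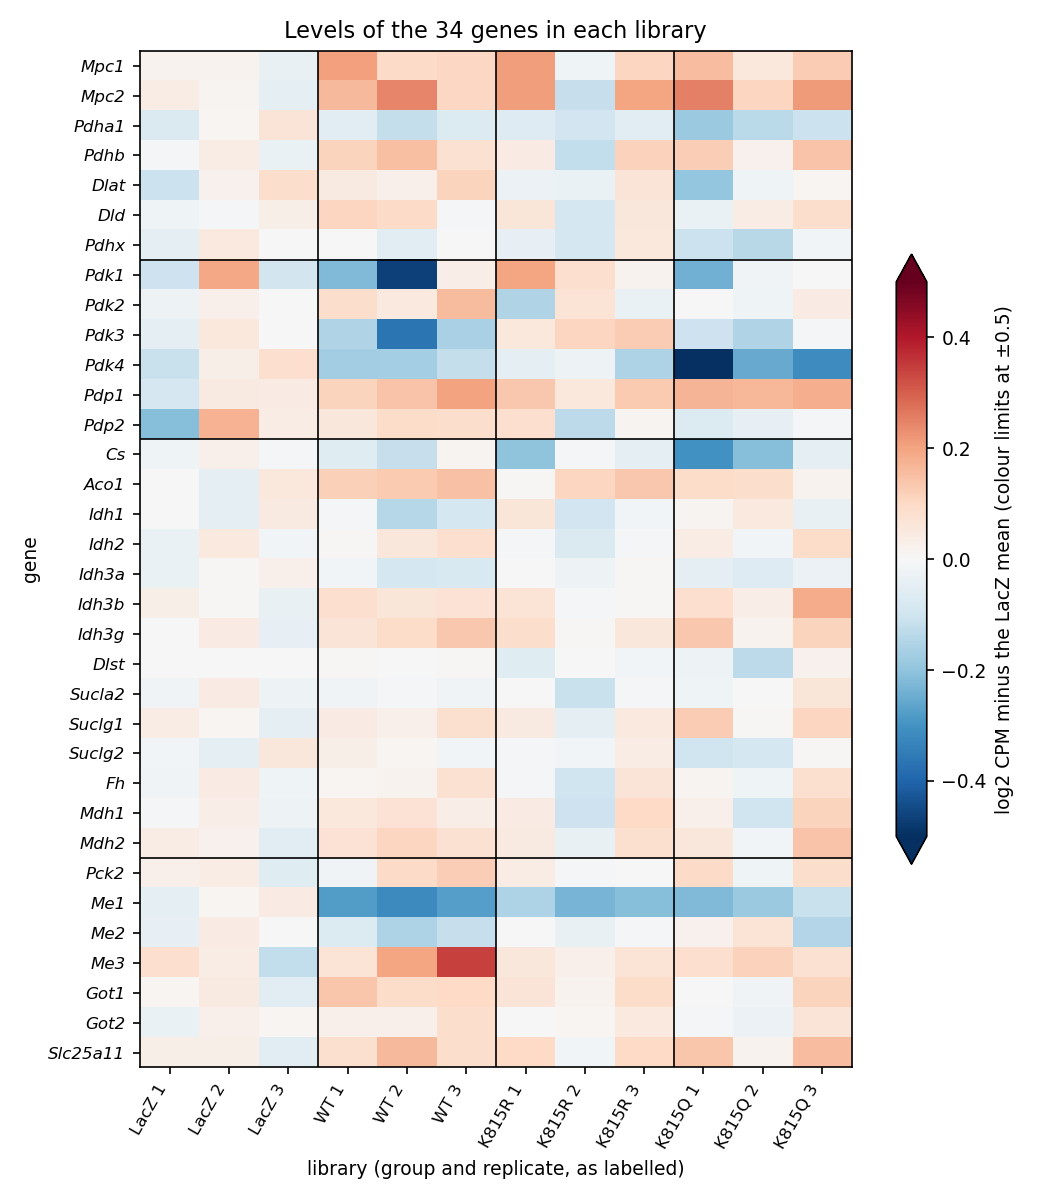
Log2 CPM of each of the 34 genes (rows, in role groups) in each of the 12 libraries (columns), minus the mean of the 3 LacZ libraries. Me1 is lower in all 9 KAT6A libraries, Pdk4 is lowest in K815Q replicate 1, and most cycle enzymes stay near 0.

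Me1 was the only called member among the 7 genes of anaplerosis, malic enzymes and shuttles. Against LacZ that is 14.3% in each of WT, K815R and the K815Q-labelled libraries, beside 5.34%, 2.47% and 7.85% of all genes. The 2 mitochondrial malic enzymes had other patterns. Me3 stood at 25.3 ± 1.86 CPM in LacZ and 29.2 ± 2.76 in WT (SD, n = 3; log2 fold change 0.21, adjusted p 0.104). Me2 stood at 19.3 ± 0.554 CPM in LacZ and 17.9 ± 0.523 in WT (SD, n = 3; -0.11, adjusted p 0.429). Got1, Got2 and Slc25a11 belong to the malate-aspartate shuttle, which moves reducing power into the mitochondrion. Against LacZ in WT they stood at 0.11, 0.05 and 0.11 (adjusted p 0.208, 0.634 and 0.240). Pck2, the mitochondrial enzyme that makes phosphoenolpyruvate, lay between 57.7 and 65.5 CPM in all 12 libraries.

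The direction of the members is given beside that of all genes, and the size of their median moved with single libraries. With any 1 of the 12 libraries left out, the median kept its sign in WT against LacZ and in K815R against WT. In the K815Q-labelled libraries against LacZ it did not. In WT 23 of 34 members stood above LacZ, with a median log2 fold change of 0.05, beside 52.4% of all genes tested and a median of 0.01. Without LacZ replicate 1 that median was 0.031, and without WT replicate 3 it was 0.034. In K815R against WT 26 of 34 stood lower, with a median of -0.04 beside a median of -0.0031 over all genes, and without K815R replicate 2 the median was -0.0086. In the K815Q-labelled libraries against LacZ 21 of 34 stood higher, with a median of 0.01, beside 51.7% of all genes and a median of 0.01, and without K815Q replicate 3 the median was -0.0060. Summed over the 34 members, levels ran from 8630 to 8868 CPM (LacZ), 8915 to 8999.7 (WT), 8420 to 8949 (K815R) and 8506 to 9154 (K815Q-labelled). WT lay above LacZ in this sum, and the other 2 groups overlapped both.

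Other genes of the pathway were read from lists. Of 31 linked enzymes and carriers, 28 were tested. Against LacZ, 0 were called in WT and 1 (3.57%) in each of K815R and the K815Q-labelled libraries. Over all genes the called shares in WT, K815R and the K815Q-labelled libraries were 5.34%, 2.47% and 7.85%. The called gene was Slc25a13 (citrin), which exports aspartate from the mitochondrion for the malate-aspartate shuttle, and it was lower than LacZ. It stood at 48.1, 52.4 and 52.7 CPM (LacZ), 46.3, 47.1 and 50.0 (WT), 41.1, 45.9 and 43.2 (K815R) and 38.9, 42.4 and 41.4 (K815Q-labelled). All libraries of the last 2 groups lay below LacZ. The log2 fold changes were -0.32 (adjusted p 0.00214) in the K815Q-labelled libraries and -0.23 (adjusted p 0.0375) in K815R. The first was called whichever library was left out and the second in 7 of 12 such fits, and it was lost without LacZ replicate 2 or 3, WT replicate 2, or K815R replicate 1 or 3. RefSeq gives Pcx as an older symbol of Pc (pyruvate carboxylase), and the row under Pc, in the same list, stood at 42.5 ± 3.21 CPM (LacZ), 42.0 ± 1.04 (WT), 41.5 ± 1.78 (K815R) and 39.1 ± 2.47 (K815Q-labelled) (SD, n = 3), with no call.

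In K815R against WT, 2 of these 28 genes (7.14%, beside 2.20% of all genes) were called higher and 0 lower. Slc16a3, the lactate exporter MCT4, stood at 213, 191 and 235 CPM in WT and 272, 277 and 278 in K815R (0.37, adjusted p 0.0226). It was 280 CPM in LacZ replicate 2 and 227 and 229 CPM in the other LacZ libraries. The call was lost without WT replicate 1 or 2 or any K815R library. Ogdhl, a tissue-restricted relative of 2-oxoglutarate dehydrogenase, rose by 0.33 (adjusted p 0.0497), a call that only the fits without LacZ replicate 2 or 3 kept among the 12 with a library left out.

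Of 16 tested glycolysis genes, 0 were called against LacZ in WT, K815R or the K815Q-labelled libraries, beside 5.34%, 2.47% and 7.85% of all genes. For the mean of the forms against LacZ it was also 0, beside 6.66%. In K815R against WT 1 was called higher and 1 lower, which is 12.5% beside 2.20% of all genes. In the other 2 comparisons of forms 0 were called. Slc2a1, the glucose transporter GLUT1, stood at 188, 187 and 196 CPM in WT and 246, 249 and 218 in K815R (0.32, adjusted p 0.0146), with no overlap. Pgam2, the muscle phosphoglycerate mutase, stood at 34.2, 37.0 and 31.8 CPM in WT and 29.3, 26.8 and 26.1 in K815R (-0.33, adjusted p 0.0280), again with no overlap. Both calls were lost without WT replicate 1 or 2 and without K815R replicate 2. Slc2a1 was also lost without K815R replicate 1 and Pgam2 without K815R replicate 3. The lowest values by size were 0.28 and -0.27. Across all 4 groups 3 glycolysis genes (18.8%, beside 8.13% of all genes) were called, namely Slc2a1, Pgam2 and Pgam1, another phosphoglycerate mutase, whose adjusted p of 0.04995 lay at the threshold. The sum of the cardiomyocyte markers and the level of Myh7, given beside Pdk3, differed in the same comparison. The part of these markers in the glycolysis results was not tested.

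Of 36 regulators of Pdk4 and genes of fatty acid use, 33 were tested. In the K815Q-labelled libraries against LacZ 1 (3.03%) was called, beside 7.85% of all genes. For the mean of the 3 forms against LacZ it was also 1 (3.03%), beside 6.66% of all genes. Angptl4, a lipase inhibitor induced by fatty acids, was the only gene called. It stood at 4.90, 9.45 and 3.98 CPM in LacZ and 2.50, 2.79 and 2.81 in the K815Q-labelled libraries (-1.17, adjusted p 0.0291), below every LacZ library. LacZ replicate 2 was the highest of all 12 libraries, and without it the value was -0.71 (adjusted p 0.0117). The call was lost when any 1 of the 3 K815Q-labelled libraries was left out. In the mean of the 3 forms against LacZ it was -0.88 (adjusted p 0.0278) and, without LacZ replicate 2, -0.43 (adjusted p 0.0717); this call was also lost without WT replicate 2, K815R replicate 1 or 3, or K815Q replicate 1. LacZ replicate 2 also had the highest Pdk1, Slc16a3 and Slc2a1 of the 3 LacZ libraries. Its 16 glycolysis genes summed to 10864 CPM, against 9682 and 9370 CPM in LacZ replicates 1 and 3. The regulators Ppara, Ppargc1a, Esrra and Foxo1 had no call.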

How the data were processed

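Poly(A) RNA of the 12 libraries was sequenced as 75 nt single reads, per the labels. The authors deposited raw read counts per Ensembl gene for each library. The submitters' processing notes name Trimmomatic 0.39, HISAT2 2.2.1, HTSeq 0.6.1, edgeR and build Rnor_6.0, with no role given; which annotation was used and whether counting used strand is not given in the sources used here, although the library kit keeps strand per the labels. Overlapping and antisense genes are therefore uncertain, and genes with close copies were counted from part of their reads. Counter lines that name no gene held 40.7% to 43.3% of reads, of which reads aligned to more than 1 place were 25.6% to 26.9% of all reads, and stayed out of library sizes and tests.

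Counts were scaled by TMM and low genes were dropped with filterByExpr at a minimum count of 10 and a minimum total of 15, leaving 14063. Tests ran in R 4.3.3 with edgeR 4.0.16, by the robust quasi-likelihood test in 1 model of group means over 12 libraries with 8 residual degrees of freedom. P-values were adjusted by Benjamini-Hochberg over all genes tested, in 6 pairwise comparisons, the mean of the KAT6A groups against LacZ, and any difference. SE is the absolute log2 fold change divided by the square root of F, and 95% intervals use it. The procedure was tested on simulated data. Within groups the libraries differed beyond sampling noise (chi-square per degree of freedom 4.65 to 9.11), so none was taken for a library deposited in duplicate; this does not show separate preparations.

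The members and lists were chosen with earlier results of these data known. Values in every library were given for Pdk4, for called members and for the member with the largest change in each comparison, and called genes of the other pathway lists were named. Pdk1, Cs, Mpc2 and Pdp1 were described in detail after their values were seen. Alternatives were RLE scaling, no filter, 10 counts in every library, DESeq2 1.42.0, a replicate block, fits of only the 6 libraries compared and leaving out each library; a fit without the K815Q-labelled libraries was added after seeing the data.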

Additional observations from a re-analysis of the deposited data

How the results depend on the processing

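Under all alternatives run, Me1 in WT against LacZ kept its direction and its call. Of 311 values of the named genes under alternatives, 251 kept direction and call, 59 kept direction but lost the call, 1 gained it and 0 changed sign; the gain was Pdk4 in K815R against the K815Q-labelled libraries without a filter on low counts (0.44, adjusted p 0.0407). For the K815Q-labelled libraries against LacZ, the 2 called members became 4 without a filter (Mpc2, Pdk4, Cs and Me1) and 4 with DESeq2 (Pdha1, Pdk4, Cs and Me1). Without a filter, the counts also became 1 in K815R against the K815Q-labelled libraries, 2 for the mean of the forms and 5 for any difference (Mpc2, Pdk3, Pdk4, Cs and Me1). Fits of only the 6 libraries compared called Mpc2 and Me1 in the K815Q-labelled libraries and lost Pdk4 (adjusted p 0.0789), Ogdhl (adjusted p 0.0609), Angptl4 (adjusted p 0.147) and Slc25a13 in K815R (adjusted p 0.0663). Leaving out a library gave 1 to 2 called members in WT against LacZ, 0 to 1 in K815R against LacZ, 0 to 5 in the K815Q-labelled libraries against LacZ, 0 to 1 in K815R against WT, 0 to 0 in the other 2 comparisons of forms, 1 to 4 for the mean of the forms and 1 to 3 for any difference. The 5 arose without K815R replicate 2 (Mpc2, Pdk4, Pdp1, Cs and Me1). The cause was not tested.

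The replicate numbers did not pair the libraries: 1 of 18 same-number pairs had a correlation of deviations over 0.1, and 4 of 12 libraries correlated best with their own number. With the replicate block, 3 members were called in the K815Q-labelled libraries against LacZ (Pdk4, Cs and Me1) in place of 2, and the other counts of members were as without it. Counts over all genes moved by more than 1.5 times without a filter (K815R against LacZ from 348 to 600, K815R against WT from 309 to 553, K815Q-labelled against WT from 151 to 423, K815R against K815Q-labelled from 51 to 307, any difference from 1143 to 2036). They also did with the block (232 for K815Q-labelled against WT and 86 for K815R against K815Q-labelled). The latter became 101 with DESeq2 and 85 in fits of 6 libraries. Left-out libraries gave 378 to 839, 173 to 364 and 360 to 1318 for WT, for K815R and for K815Q-labelled against LacZ, and 124 to 338, 50 to 218 and 11 to 98 for K815R against WT, K815Q-labelled against WT and K815R against K815Q-labelled. The median log2 fold change of the members over the 12 fits with a library left out ran from 0.031 to 0.063 in WT against LacZ, -0.011 to 0.033 in K815R against LacZ, -0.0060 to 0.033 in K815Q-labelled against LacZ and -0.049 to -0.0086 in K815R against WT. Depth limits the genes of low level most, among them Adgre1, Angptl4, Pdk4, Ppara, Foxo1 and Ogdhl.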
